A study of Homo sapiens with 10 samples.

Results

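Collagens are the main structural proteins of the extracellular matrix, and their genes were followed here in PC3 cells, a human prostate cancer line established from a bone metastasis. The members were chosen by symbol, as every gene of the deposited table named COL, a type number, A and a chain number, and 44 of the 62656 listed genes qualified. The cells were starved overnight in RPMI-1640 and then kept for 24 h with the vehicle DMSO (5 libraries) or with 1 µM of GW3965 (5 libraries), a synthetic agonist of the liver X receptors (LXRs), which are nuclear receptors for oxidised cholesterol derivatives. Both groups are the same established line with no genetic change between them, and the starvation was common to both. The labels do not say whether the libraries of a group came from separate cultures, so p-values measure the spread between libraries, which may be technical. The comparison asks whether the agonist changed the amounts of collagen RNA in these cells.

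A collagen molecule is a trimer of alpha chains wound into a triple helix, and each chain has its own gene. Some trimers hold a single kind of chain, as type III collagen does, and others need partner chains from separate genes, as in the COL4A1 and COL4A2 trimer of basement membranes. Fibrillar collagens (types I, II, III, V, XI, XXIV and XXVII) build fibrils, network collagens (types IV, VIII and X) build sheets, type VI collagen builds beaded filaments next to cells, and FACIT collagens attach to fibril surfaces. Type VII forms anchoring fibrils under epithelia, transmembrane collagens such as COL13A1 stay in the plasma membrane, and the multiplexins COL15A1 and COL18A1 carry long interrupted helices. In tissue, fibroblasts make most of the fibrillar collagen, while epithelial cells contribute chains of the basement membrane.

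The start regions of some genes with partner chains are shown first. Whether they bear on the ratios of partner chains given further on was not tested. COL4A1 and COL4A2 lie head to head on chromosome 13, and the 126 bases between their RefSeq start sites (GRCh38.p14, chr13:110307158-110307283, shown on the + strand, along which COL4A2 is read) are common to both genes. COL6A2 is given by the 250 bases before its start (chr21:46097862-46098111, + strand) and COL6A3 by the 250 bases before its own (chr2:237414165-237414414, − strand, written in the direction of the gene). The capitals mark 3 short promoter motifs, read on either strand: the CCAAT box, the GC box with the letters GGGCGG, and the TATA box with the letters TATAAA.
COL4A1 and COL4A2: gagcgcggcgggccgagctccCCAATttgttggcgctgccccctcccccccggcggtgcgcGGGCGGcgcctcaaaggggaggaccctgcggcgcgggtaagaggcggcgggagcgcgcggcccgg
COL6A2: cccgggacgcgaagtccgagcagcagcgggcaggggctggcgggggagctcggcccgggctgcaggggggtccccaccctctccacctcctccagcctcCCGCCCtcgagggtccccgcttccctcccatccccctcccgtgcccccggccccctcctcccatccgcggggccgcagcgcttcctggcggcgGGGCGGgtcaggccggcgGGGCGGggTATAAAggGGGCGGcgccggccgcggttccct
COL6A3: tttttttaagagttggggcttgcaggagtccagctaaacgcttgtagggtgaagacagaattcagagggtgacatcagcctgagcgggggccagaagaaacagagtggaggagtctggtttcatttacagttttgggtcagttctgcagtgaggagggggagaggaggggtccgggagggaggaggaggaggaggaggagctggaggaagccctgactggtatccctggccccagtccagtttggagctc
The region common to COL4A1 and COL4A2 held the CCAAT box once and the GC box once at a GC content of 80.2%. COL6A2 had the TATA box once and the GC box 4 times at a GC content of 79.6%, and COL6A3 had none of these motifs at a GC content of 56%.

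Of the 44 genes, 32 had at least 1 RefSeq start window in the table used, and these gave 44 windows of 300 bases, 250 before the start and 50 after it. The TATA box stood in 8 windows (18.2%, against 11.5% of the 35116 windows of all genes), the CCAAT box in 14 (31.8% against 34.6%) and the GC box in 24 (54.5% against 45.0%). LXRs bind with RXR to a pair of AGGTCA motifs set 4 bases apart, and that exact pair, searched on both strands with any 4 bases between, was found in 0 collagen windows and in 7 of all windows (0.0199%). A single AGGTCA was found in 1 collagen window, that of COL7A1 (2.27% against 13.8%). A missing match says only that these letters were not in these windows, which do not cover distant elements. COL6A1, COL5A2, COL3A1, COL8A1 and COL1A1, described further on, had no window, so the search says nothing about them.

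PC3 cells carried reads of every collagen class, but at levels that differed by several orders of magnitude. Levels are given in RPKM, reads per kilobase of gene, scaled between libraries by the authors. The type VI chains COL6A1 (mean of 10 libraries 112 RPKM) and COL6A2 (91.5 RPKM) made up 36.6% and 30.0% of the summed RPKM of all collagen genes. They were followed by the type V chain COL5A2 (35.4 RPKM, 11.6% of the sum) and the type IV chain COL4A2 (16.2 RPKM). In all, 16 collagen genes reached a mean of 0.5 RPKM, the level below which genes were not tested, and 28 did not. The tested genes were 4 of 11 fibrillar chains, 4 of 6 basement membrane chains, 3 of 5 beaded filament chains, 1 of 3 hexagonal network chains, 2 of 10 FACIT chains, 1 of 4 transmembrane chains and 1 of 2 multiplexins.

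**Figure D1:**
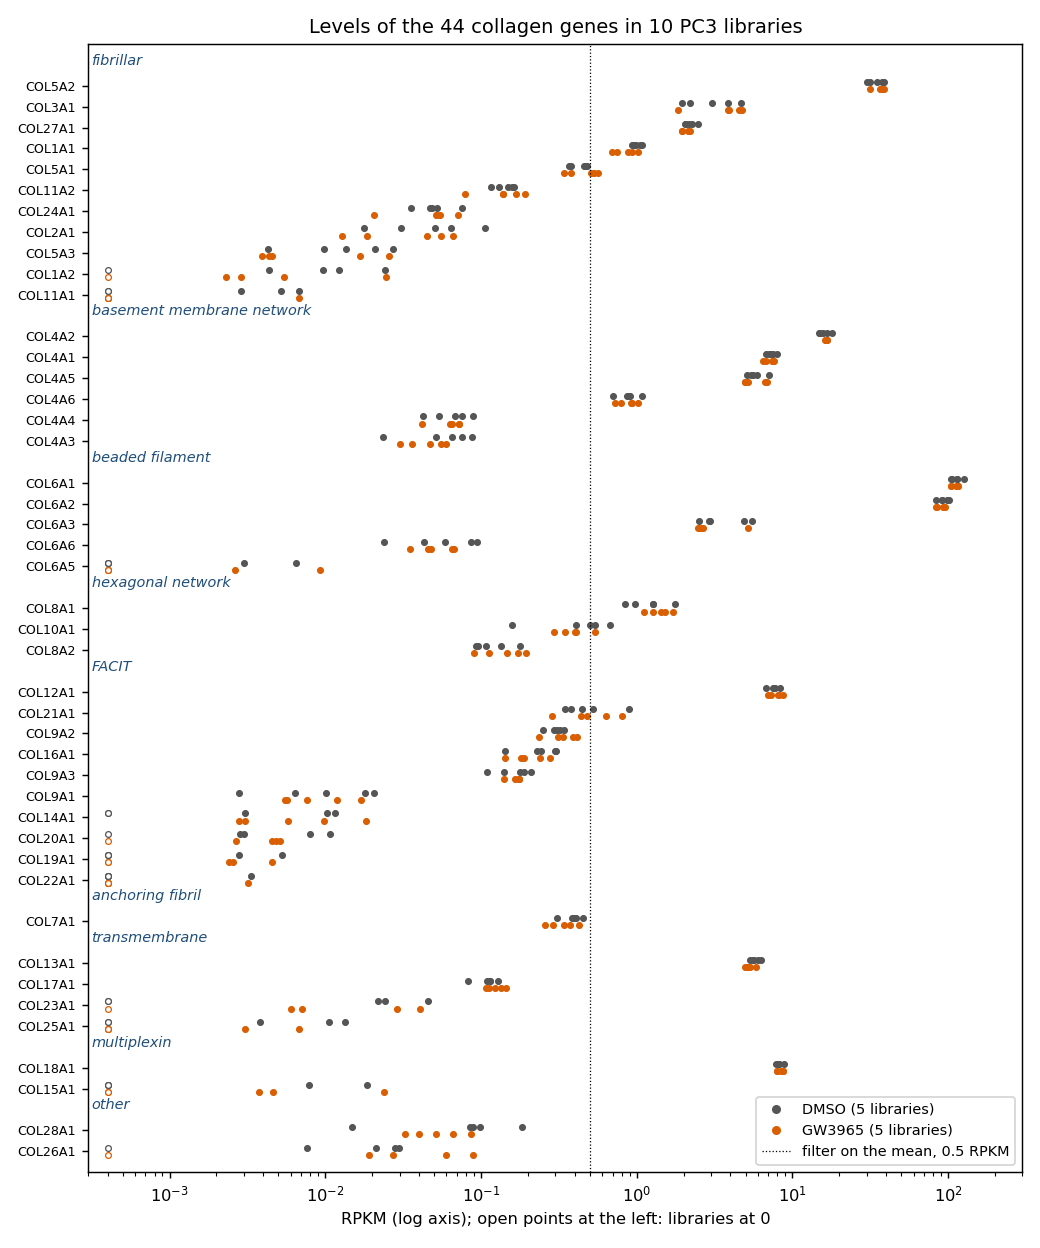
RPKM of the 44 collagen genes (log x axis) in the 5 DMSO libraries (grey) and the 5 GW3965 libraries (orange), by class, with open points at the left edge for libraries at 0 and a dotted line at the filter of 0.5 RPKM. COL6A1 and COL6A2 lie highest, at 83.5 to 126 RPKM in every library, and the points of the groups overlap for each of the 16 genes whose mean passes the line.

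COL6A1, which codes for the alpha-1 chain of type VI collagen, measured 105, 106, 115, 126 and 114 RPKM in DMSO libraries 1 to 5 and 104, 105, 115, 116 and 112 RPKM in GW3965 libraries 1 to 5. COL6A2, its partner chain, measured 83.5, 91.1, 98.2, 101 and 90.7 RPKM with DMSO and 84.5, 83.7, 95.1, 92.7 and 94.6 RPKM with GW3965. The groups overlapped for both chains. COL6A1 was above COL6A2 in 10 of 10 libraries in the deposited RPKM, an order that depends on the gene length used. COL5A2, an alpha-2 chain of the type V collagen that regulates fibril width, measured 39.0, 31.7, 30.1, 37.5 and 35.0 RPKM with DMSO and 37.3, 38.6, 36.6, 36.8 and 31.3 RPKM with GW3965. DMSO libraries 2 and 3 and GW3965 library 5 were the lowest for COL5A2.

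COL4A2, the alpha-2 chain of the common basement membrane trimer, measured 16.7, 14.8, 15.8, 18.1 and 15.1 RPKM with DMSO and 16.5, 16.1, 16.5, 16.4 and 16.6 RPKM with GW3965. Its partner COL4A1 measured 7.07, 6.77, 7.49, 8.00 and 7.26 RPKM with DMSO and 6.78, 6.44, 7.50, 7.59 and 7.37 RPKM with GW3965. The GW3965 values of COL4A2 all lay inside the range of its DMSO values, and the groups overlapped for COL4A1 as well. COL18A1, the multiplexin whose C-terminal fragment is endostatin, was next in level, with 8.21, 8.04, 8.17, 8.87 and 7.87 RPKM with DMSO and 8.68, 8.43, 8.72, 7.91 and 7.97 RPKM with GW3965, and its groups overlapped. In GENCODE 29, COL18A1 shares 1401 exon bases with SLC19A1 on the opposite strand, a gene at 2.59 RPKM, and since it is not stated whether the counting used strand, reads from that stretch may belong to either gene.

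The remaining tested chains lay between 0.522 and 7.71 RPKM. COL12A1, a FACIT chain of fibril surfaces, averaged 7.71 RPKM, COL4A5, a basement membrane chain, averaged 5.76 RPKM, and the transmembrane chain COL13A1 averaged 5.52 RPKM. Type III collagen (COL3A1) stood at 3.47 RPKM, the large type VI chain COL6A3 at 3.43 RPKM and the fibrillar COL27A1 at 2.14 RPKM. COL8A1, a network chain best known from vessel walls and the eye, averaged 1.31 RPKM. COL1A1, the main chain of type I collagen in bone and skin, averaged 0.928 RPKM, close to COL4A6 at 0.884 RPKM, and the FACIT chain COL21A1 was at 0.522 RPKM.

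The order of the genes depended in part on the gene length used. The gene lengths that the deposited RPKM values imply exceeded the longest coding transcript in GENCODE 29 for 42 of the 44 genes. They were 11509 bases for COL13A1 and 19271 bases for COL4A2, against longest coding transcripts of 3187 and 6494 bases. With the longest coding transcripts, COL6A1 (146 RPKM) and COL6A2 (141 RPKM) remained first, COL4A2 (48.2 RPKM) passed COL5A2 (36.6 RPKM), and COL13A1 rose from place 9 to place 5 at 19.9 RPKM. A length is the same in every library, but it sets a gene's level against the filter and the pseudocount. With the longest coding transcripts COL5A1, untested at 0.448 RPKM, would be at 0.590 RPKM.

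Of the 20402 genes tested over the whole table, 32 (0.157%) passed an adjusted p of 0.05 between GW3965 and DMSO, 30 of them higher, and of the 16 tested collagen genes 0 did (limma with Benjamini-Hochberg adjustment over all tested genes). At an unadjusted p under 0.05 the counts were 1427 genes (6.99%) and again 0 of 16 collagen genes. The groups did not overlap for 376 genes (1.84%) and for 0 of 16 collagen genes. The voom method of limma, run on the reads recovered from the RPKM values, called 65 of the 20402 genes and 0 collagen genes. At an unadjusted p under 0.05 its counts were 1477 of the 20402 genes and 2 of the 16 collagen genes, COL1A1 and COL13A1. The cholesterol transporter genes ABCA1 and ABCG1, textbook targets of LXRs, rose with GW3965 (adjusted p = 6.30e-04 and 1.24e-04, limma). ABCA1 was at 3.43 ± 1.34 RPKM with DMSO and 16.5 ± 2.37 RPKM with GW3965, and ABCG1 at 1.57 ± 0.392 and 7.06 ± 0.790 RPKM (mean ± SD, n = 5 each).

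The log2 fold changes of the 16 collagen genes, on log2(RPKM + 0.1), ran from −0.26 for COL6A3 to 0.26 for COL3A1, with 7 above 0 and 9 below. Their median was −0.02, against 0.003 over all tested genes, and their adjusted p-values lay between 0.730 and 0.992 (limma). For 10 of the 16 the 95% interval of the change stayed inside 20% in either direction, a limit chosen after the values were seen. COL6A1 differed by −0.03 with an interval of −0.17 to 0.11, which is from 11.3% lower to 7.57% higher, and COL6A2 by −0.04 with an interval of −0.19 to 0.10. COL18A1 had one of the narrowest intervals, −0.10 to 0.14 around 0.02. COL4A1 (−0.04) and COL4A2 (0.04) had intervals of −0.18 to 0.11 and −0.10 to 0.17. For these genes larger changes lay outside the interval, and smaller ones were not detectable with 5 libraries per group.

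**Figure D2:**
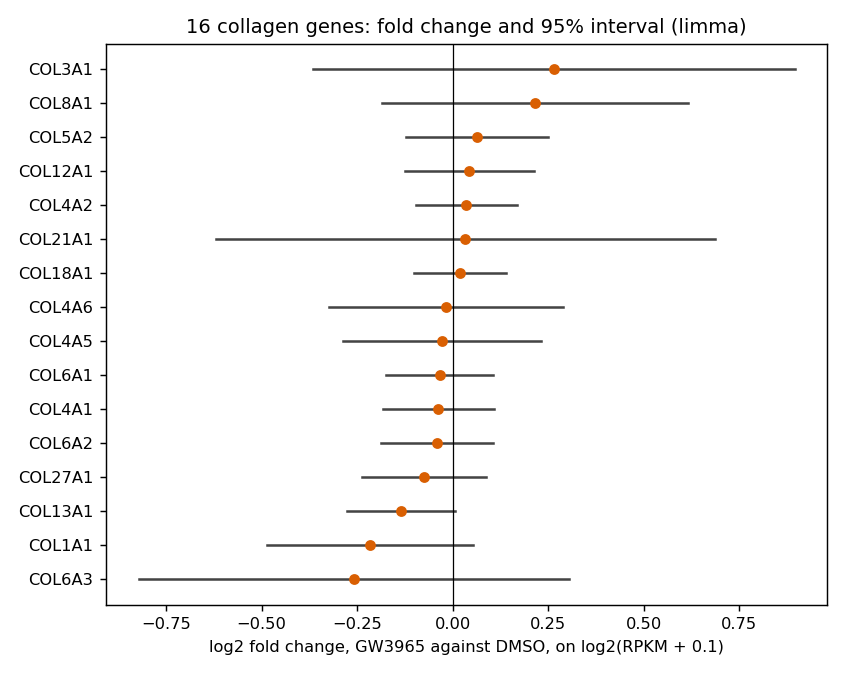
log2 fold change of GW3965 against DMSO on log2(RPKM + 0.1) for the 16 tested collagen genes (x axis), one gene per row, as the limma estimate (point) with its 95% interval (line) from 5 libraries per group. All 16 intervals include 0, and they are widest for COL21A1, COL3A1 and COL6A3.

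COL13A1 had the smallest p of the collagen genes. It measured 5.60, 6.01, 6.27, 5.70 and 5.32 RPKM with DMSO and 4.96, 5.13, 5.10, 5.30 and 5.79 RPKM with GW3965. Of the GW3965 libraries, 4 lay below every DMSO library and library 5 lay among them, so the groups overlapped. The log2 fold change was −0.13 (SE 0.06, 95% interval −0.28 to 0.006) with an unadjusted p of 0.0587 and an adjusted p of 0.730 (limma). Without GW3965 library 5, the difference was −0.17 with an unadjusted p of 0.0237 and an adjusted p of 0.716 (limma). The unadjusted p of COL13A1 was 0.0324 without DMSO library 5 and 0.0497 without a filter (limma). With quantile normalization it was 0.0235 and with library weights 0.0456 (limma), and in the voom fits 0.0356 and 0.0490. It stayed above 0.05 under every other alternative, and its adjusted p was never below 0.476.

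COL1A1 measured 0.984, 1.04, 1.08, 0.966 and 0.939 RPKM with DMSO and 0.931, 1.01, 0.748, 0.696 and 0.884 RPKM with GW3965. The values rested on 222 to 398 reads per library, and GW3965 library 2 lay within the DMSO range while the other 4 lay below it. Its log2 fold change was −0.22 (SE 0.12, 95% interval −0.49 to 0.05) with an unadjusted p of 0.104 and an adjusted p of 0.804 (limma). By this test the change was not separated from the spread between libraries, and the interval runs from 28.6% lower to 3.67% higher. The unadjusted p of COL1A1 was 0.0492 without a trend and 0.0356 with library weights (limma), and 0.0460 and 0.0422 in the voom fits. It stayed above 0.05 under every other alternative that tested it, and its adjusted p was never below 0.447.

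The fibrillar COL27A1, the FACIT chains COL12A1 and COL21A1 and the basement membrane chains COL4A5 and COL4A6 differed by less than their spread. COL27A1 was at 2.20 ± 0.174 RPKM with DMSO and 2.08 ± 0.120 RPKM with GW3965, COL12A1 at 7.58 ± 0.561 and 7.83 ± 0.714 RPKM, and COL4A6 at 0.891 ± 0.135 and 0.878 ± 0.119 RPKM (mean ± SD, n = 5 each). COL4A5 was at 5.80 ± 0.748 RPKM with DMSO and 5.71 ± 0.939 RPKM with GW3965, and COL21A1 at 0.516 ± 0.220 and 0.528 ± 0.199 RPKM. The interval of COL21A1, from −0.62 to 0.69 on the log2 scale, was too wide to separate a sizeable change from none.

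The summed amount of collagen RNA was close in the groups. Collagen genes took 0.223 to 0.243% of a library's reads with DMSO (median 0.233%) and 0.213 to 0.251% with GW3965 (median 0.238%). Their summed RPKM was 294 to 333 with DMSO and 293 to 312 with GW3965. COL6A1 and COL6A2 together made 63.6 to 68.7% of that sum with DMSO and 64.2 to 67.7% with GW3965. The ranges overlapped for each of these sums, which were not tested.

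The ratios of partner chains varied little between libraries for some pairs and widely for others. The ratio of COL6A1 to COL6A2 was 1.22 ± 0.0477 with DMSO and 1.22 ± 0.0318 with GW3965 (mean ± SD, n = 5 each), a coefficient of variation of 3.14% over the 10 libraries. With the longest coding transcripts as lengths, the ratio of the mean levels of COL6A1 and COL6A2 was 1.03 in place of 1.22. The ratio of COL4A1 to COL4A2, which are read from the common region printed above, was 0.424, 0.459, 0.475, 0.443 and 0.482 with DMSO and 0.412, 0.401, 0.453, 0.462 and 0.444 with GW3965. The groups overlapped and the coefficient of variation was 5.95%, with a mean log2 difference of −0.07 for GW3965 minus DMSO (two-sided exact permutation test, p = 0.198, where the smallest possible p is 0.00794). With the longest coding transcripts as lengths, the ratio of the mean levels was 0.332 in place of 0.445, so the value of the ratio rests on the gene length, while the log2 difference of this ratio between the groups, taken without a pseudocount, does not.

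**Figure D3:**
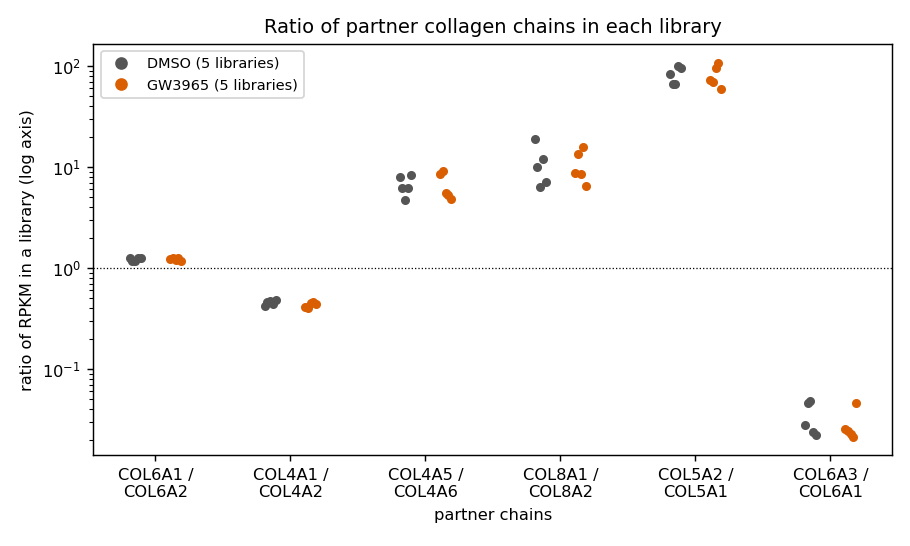
Ratio of the RPKM values of partner chains in each library (log y axis) for 6 pairs, with DMSO in grey, GW3965 in orange and a dotted line at a ratio of 1. The ratios of COL6A1 to COL6A2 and of COL4A1 to COL4A2 spread little, while COL6A3 to COL6A1 splits into 7 libraries at 0.0214 to 0.0278 and 3 libraries at 0.0463 to 0.0480.

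Other partners were far apart in level. Type VI trimers also need a longer chain beside COL6A1 and COL6A2, and COL6A3 stood at 0.0214 to 0.0480 of COL6A1 over the 10 libraries, with its paralogs COL6A5 and COL6A6 lower still. COL5A2 exceeded its partner COL5A1 79.1-fold in mean RPKM, and COL5A1 measured 0.470, 0.478, 0.456, 0.379 and 0.368 RPKM with DMSO and 0.511, 0.560, 0.381, 0.342 and 0.531 RPKM with GW3965. The coefficients of variation over the 10 libraries were 36.4% for COL6A3 to COL6A1, 20.9% for COL5A2 to COL5A1, 39.5% for COL8A1 to COL8A2 and 25.0% for COL4A5 to COL4A6. The rarer chains had 1741 to 4483 reads per library for COL6A3, 133 to 250 for COL5A1, 15 to 31 for COL8A2 and 212 to 357 for COL4A6. The counting error therefore differed between these ratios. COL1A1 exceeded COL1A2, which had 33 reads over all 10 libraries and 0 in one library of each group, 109-fold. COL8A1 was 9.91-fold above COL8A2, and COL4A5 was 6.51-fold above COL4A6, a gene that starts 346 bases from it in the opposite direction. With the longest coding transcripts as lengths, the ratios of the means were 16.3 for COL8A1 to COL8A2, 0.0471 for COL6A3 to COL6A1, 62.0 for COL5A2 to COL5A1, 72.8 for COL1A1 to COL1A2 and 8.67 for COL4A5 to COL4A6. These are levels of RNA, and the chains themselves were not measured.

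In 3 libraries, DMSO 2, DMSO 3 and GW3965 5, several collagen genes stood apart together. COL3A1 measured 4.66, 1.97, 2.18, 3.88 and 3.05 RPKM with DMSO and 4.77, 4.57, 3.92, 3.84 and 1.85 RPKM with GW3965. These 3 libraries were its lowest, at 1.85 to 2.18 RPKM, against 3.05 to 4.77 RPKM in the other 7. COL6A3 measured 2.92, 4.92, 5.49, 2.97 and 2.50 RPKM with DMSO and 2.67, 2.58, 2.60, 2.49 and 5.18 RPKM with GW3965. Here the same 3 libraries were the highest, at 4.92 to 5.49 RPKM, against 2.49 to 2.97 RPKM.

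The pattern was chosen from COL3A1 and COL6A3 after their values were seen. Beyond these, COL5A2 (30.1 to 31.7 against 35.0 to 39.0 RPKM) and COL8A1 (0.843 to 1.11 against 1.26 to 1.76 RPKM) were lowest in the 3 libraries, and COL13A1 (5.79 to 6.27 against 4.96 to 5.70 RPKM) was highest in them. Leaving out the genes that defined the pattern, these libraries were the lowest or the highest 3 for 3 of 14 tested collagen genes. The same held for 4.33% of all tested genes and for 9 of 44 tested genes (20.5%) of the lists of collagen processing, receptors and collagenases described further on. COL6A1, COL6A2, COL4A1 and COL4A2 did not follow the pattern. COL3A1 and COL5A2 are neighbours on chromosome 2, 19149 bases apart and read towards each other.

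**Figure D4:**
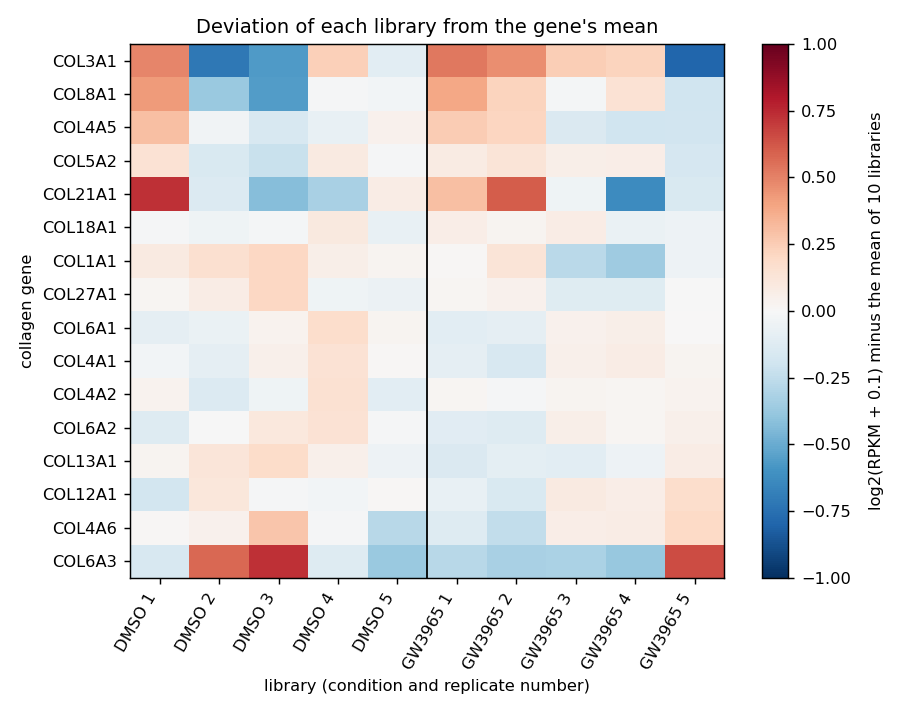
Deviation of each library (x axis, 5 DMSO then 5 GW3965) from the mean of the 10 libraries in log2(RPKM + 0.1), as colour, for the 16 tested collagen genes (y axis). DMSO 2, DMSO 3 and GW3965 5 are blue for COL3A1, more weakly so for COL8A1, and red for COL6A3. The rows of COL6A1, COL6A2, COL4A1 and COL4A2 are pale throughout, as is that of COL5A2, which is pale blue in these libraries.

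These libraries held 39387348, 30612230 and 31898158 reads, within the range of the others. Since 2 of the 5 DMSO libraries and 1 of the 5 GW3965 libraries are among them, they weigh on the comparison of these genes. COL3A1 was at 0.26 (SE 0.29, 95% interval −0.37 to 0.89) with all libraries and 0.16 without the 3. COL6A3 moved from −0.26 (SE 0.26, 95% interval −0.82 to 0.30) to −0.10, COL8A1 from 0.22 to 0.05, COL5A2 from 0.06 to 0.007 and COL13A1 from −0.13 to −0.11. Without GW3965 library 5 alone, COL3A1 was at 0.50 and COL6A3 at −0.45. Without the 3 libraries, 10 genes of the whole table and 0 collagen genes were called, and the lowest adjusted p of a collagen gene was 0.999 (limma). The labels give no batch or date, and what sets these libraries apart was not tested.

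The 28 collagen genes below the filter, which is set on RPKM, ranged widely in reads. In 17 of them every library had at least 1 read, and 11 were at 0 in at least 1 library, though none was at 0 in all libraries. COL11A1, COL19A1, COL22A1 and COL6A5 had at most 3 reads in every library, and no fold is given for them. The most abundant of the 28 were COL5A1 (0.448 RPKM, 133 to 250 reads per library), the cartilage network chain COL10A1 (0.427 RPKM, 23 to 84 reads) and COL7A1, the anchoring fibril chain of epithelia (0.364 RPKM, 101 to 181 reads). COL5A1 had 855 reads in the DMSO libraries together and 932 in the GW3965 libraries, COL10A1 had 302 and 272, and COL7A1 had 764 and 672. The tested COL21A1 had fewer reads than COL5A1 and COL7A1, at 631 and 665.

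Further down were COL9A2, COL9A3 and COL16A1 of the FACIT class, at 20 to 118 reads per library, and COL11A2, COL17A1 and COL8A2 at 15 to 56 reads. COL17A1 codes for the transmembrane collagen of hemidesmosomes in basal epithelium. COL1A2, the obligate partner of COL1A1 in most type I collagen, had 19 reads in the 5 DMSO libraries and 14 in the 5 GW3965 libraries. COL2A1, the fibrillar collagen of cartilage, had 3 to 27 reads. The basement membrane chains COL4A3 and COL4A4, best known from the kidney glomerulus, lay between 0.0235 and 0.0894 RPKM. The others, COL24A1, COL5A3, COL6A6, COL9A1, COL14A1, COL20A1, COL23A1, COL25A1, COL15A1, COL28A1 and COL26A1, lay at a mean below 0.1 RPKM. When all 28 were fitted without a filter, 0 were called and the lowest unadjusted p was 0.228 (adjusted p = 0.913, limma), for COL26A1.

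Collagen chains are hydroxylated, glycosylated and folded in the endoplasmic reticulum, carried out in large vesicles, trimmed by propeptidases and crosslinked outside the cell. Of 41 genes listed for these steps, 34 were tested, and 0 of them passed the adjusted threshold (18 fold changes above 0, 16 below, median log2 0.01). P3H2, a prolyl 3-hydroxylase that acts on basement membrane collagen, was the only one of them at an unadjusted p under 0.05. It measured 1.00, 1.25, 1.22, 1.36 and 1.12 RPKM with DMSO and 1.45, 1.44, 1.39, 1.56 and 1.63 RPKM with GW3965. The GW3965 libraries were all above the DMSO libraries, with a log2 fold change of 0.31 (SE 0.10), an unadjusted p of 0.00882 and an adjusted p of 0.434 (limma). The lowest fold change of this list was that of LOX, a lysyl oxidase that crosslinks collagen, at 3.14 ± 1.09 RPKM with DMSO and 2.68 ± 0.734 RPKM with GW3965 (log2 −0.20, adjusted p = 0.944, limma).

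Cells hold collagen through integrins and discoidin receptors and cut it with collagenases, and of 18 such genes 10 were tested. None of these passed the adjusted threshold (7 fold changes above 0, 3 below, median log2 0.02). ITGA2, the alpha-2 subunit of a collagen-binding integrin, measured 11.9, 12.3, 9.35, 8.94 and 10.3 RPKM with DMSO and 14.9, 14.8, 14.6, 13.1 and 15.7 RPKM with GW3965. Its GW3965 libraries were all above the DMSO libraries, with a log2 fold change of 0.48 (SE 0.09), an unadjusted p of 3.50e-04 and an adjusted p of 0.118 (limma). By voom on the recovered reads its adjusted p was 0.0474 at a fold change of 0.48, and over the 22 alternatives its adjusted p ran from 0.0364 to 0.553, so this call depends on the method. The lowest fold change was that of the collagenase MMP13, at 10.6 ± 2.39 RPKM with DMSO and 9.59 ± 2.38 RPKM with GW3965 (log2 −0.15, adjusted p = 0.950, limma). The 9 genes of these lists that set DMSO 2, DMSO 3 and GW3965 5 apart were LOX, CREB3L1, MMP1 and MMP13, with their lowest 3 values there, and P4HA2, PLOD2, P3H3, LOXL2 and LOXL4, with their highest 3. For the collagenase MMP1, the 3 libraries lay at 10.3 to 11.2 RPKM and the other 7 at 22.8 to 32.1 RPKM.

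Markers of the line and of other cell types were measured beside the collagens. The epithelial keratins KRT8 (36.6 RPKM), KRT18 (49.6 RPKM) and KRT19 (149 RPKM) and the filament gene VIM (69.5 RPKM) were expressed, EPCAM was at 1.73 RPKM, and KLK3 was at 0 in every library. Of 7 fibroblast markers, POSTN was at 0 in every library and DCN averaged 0.00476 RPKM, and the 7 summed to 0.156 to 0.356 RPKM with DMSO and 0.158 to 0.370 RPKM with GW3965. The 3 endothelial markers summed to 0.584 to 0.672 and 0.411 to 0.765 RPKM, nearly all of it PECAM1, and the 4 macrophage markers to 0.368 to 0.531 and 0.301 to 0.594 RPKM. The libraries held 30431690 to 41638859 reads, with overlapping ranges in the groups. In these bulk samples, fewer cells expressing a gene and less RNA per cell cannot be told apart.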

How the data were processed

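Gene expression in PC3 cells was analysed after 24 h of DMSO or 1 µM GW3965, with 5 libraries per group that the sample titles name. Per the labels, the authors' tools were bcl2fastq 2.20.0.422, cutadapt, HISAT2 2.1.0, HTSeq 0.11.2 and DESeq2 1.22.2 with the hg38 genome. The methods name another HISAT release and the mouse genome, while the gene identifiers are human. Total RNA depleted of ribosomal RNA is described in the methods and polyA RNA in the labels. Whether counting used strand, and the annotation release, are not given in the sources used here. The authors deposited RPKM values, 1 column per library. Of 380271 values above 0, 100% were whole numbers of reads (tolerance 0.001 reads), and the library factors were median-of-ratios size factors. Totals from 30431690 to 41638859 reads were recovered. Read numbers without molecular identifiers show the size of the counting error only, and libraries of a group differed by more than that. Over pairs of libraries in a group, the chi-square per degree of freedom ran from 8.91 to 103.

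Values were taken as log2(RPKM + 0.1), and the 20402 genes averaging 0.5 RPKM or more were tested by limma 3.58.1 under R 4.3.3 (lmFit, eBayes with trend, two-sided), adjusted over all of them by Benjamini-Hochberg, with a threshold of 0.05. The pseudocount understates changes of low genes. The procedure was tested on simulated data. Lengths of longest coding transcripts and exon overlaps were taken from GENCODE 29, and start regions from RefSeq (GRCh38.p14). The members, lists and tests were chosen with earlier results of these data known. Named with values were all tested collagen genes, and of the lists those at an unadjusted p under 0.05 and those with the highest and lowest fold change. Per-library values were given for the 5 most abundant collagen genes, their partner chains, those with a library far from its group and the list genes at an unadjusted p under 0.05. Those of COL13A1 and COL1A1, and the list genes named for the libraries that stood apart, were added after their values were seen.

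The alternatives were a pseudocount of 1 or of 0.01, a filter at 1 RPKM or none, equal sums or quantile normalization, a replicate block, no trend, weights per library and leaving out each library in turn. Voom on the recovered reads and the loss of 3 libraries were added after the data were seen. No pair of libraries was near-identical. One marker of the line is not reported here.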

Additional observations from a re-analysis of the deposited data

Results flagged for a closer look

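In 3 of the 32 groups of 5 libraries tested (16 collagen genes in each condition), 1 library lay far from the other 4. For independent groups, chance alone would flag about 1 in 20. The genes here were read in the same libraries, so 3 of 32 cannot be set against that rate. All 3 concern GW3965 library 5. For COL6A3, this library was the highest of its group at 5.18 RPKM, and its gap to the next library was 0.903 of the group's range in log2(RPKM + 0.1). For COL3A1 it was the lowest at 1.85 RPKM with a gap of 0.768 of the range, and for COL5A2 the lowest at 31.3 RPKM with a gap of 0.753 of the range. The critical value for 5 libraries was 0.71. DMSO libraries 2 and 3 lay at the same end for these genes, and as a pair they could not be picked out by a rule on single libraries.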

How the results depend on the processing

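Of the 16 collagen genes, 0 were called under all 22 alternatives of the table-wide fit. Of their 347 fold changes under an alternative, 27 changed sign and 0 passed the threshold. COL1A1, COL12A1, COL3A1, COL5A2, COL6A3 and COL8A1 kept their sign under every alternative that tested them. The number of genes called over the whole table, 32 as reported, was 21 without a filter, 16 with the replicate block, 20 without a trend, 56 with library weights, 65 with voom on the same genes, 64 with voom on genes averaging 10 reads or more and 10 without the 3 libraries that stood apart, and it ranged from 17 to 38 when 1 library was left out. The median collagen fold change, −0.02, was 0.11 with equal sums, where the median of all genes moved to 0.14, and 0.012 with library weights, and ranged from −0.026 to −0.0018 when 1 library was left out. With equal sums the signs turned for COL6A1 (0.10), COL6A2 (0.10), COL4A1 (0.10), COL4A5 (0.11), COL27A1 (0.057), COL13A1 (0.00050) and COL4A6 (0.11), all at or below that median of all genes. They turned with quantile normalization for COL18A1 (−0.0035) and COL4A6 (0.00061), with library weights for COL21A1 (−0.035), COL6A1 (0.0092), COL4A1 (0.015) and COL4A6 (0.017), and without the 3 libraries for COL21A1 (−0.10), COL4A2 (−0.015) and COL4A6 (0.033). When 1 library was left out, COL4A5 ranged from −0.095 to 0.043, COL21A1 from −0.069 to 0.19, COL4A6 from −0.089 to 0.051 and COL6A1 from −0.060 to 0.0058. MMP13 ranged from −0.25 to 0.024, the latter without GW3965 library 5. ITGA2 passed the threshold with voom, at 0.48 in both versions. The ratio of COL4A1 to COL4A2 differed by −0.10 to −0.04 (log2) when 1 library was left out, with exact permutation p-values from 0.103 to 0.397. The labels do not say whether same-numbered libraries belong together. Over the tested genes, correlations of their deviations from the group means were 0.149, −0.049, 0.039, 0.160 and −0.138. Only number 4 correlated best with its own number. These values show no pairing common to all numbers, but they cannot exclude a paired design. With the replicate block, the ratio differed by −0.07 (exact permutation within pairs, p = 0.188, smallest possible 0.0625), and the collagen genes called remained 0. Except where a result follows from testing fewer samples or more genes, the cause was not tested. COL21A1 was not tested without DMSO library 1 or without GW3965 library 2, since its mean then fell below the filter. Genes with few reads, as many of the 28 below the filter, allow no statement on small changes. The filter is set on RPKM, and COL5A1 and COL7A1 below it had more reads than the tested COL21A1. With voom on genes averaging 10 reads or more, COL5A1 was at 0.09 (SE 0.15) and COL7A1 at −0.21 (SE 0.15). The SE of COL21A1 in that fit was 0.27.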
